A study of Homo sapiens with 34 samples.

Results

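The kinesin motor genes were followed in 3 human B-cell acute lymphoblastic leukemia (B-ALL) lines after *CCND3* knockdown or inhibition of the kinases that cyclin D3 binds. All symbols made of KIF and a digit, together with *KIFC1*, *KIFC2* and *KIFC3*, were taken as members, which gave 42 of the 17587 genes listed in at least 1 comparison. By their known roles, 14 were placed with the mitotic kinesins, 17 with the transport kinesins and 10 with other motors, and 1 (*KIF1BP*, the older symbol of *KIFBP*) encodes a kinesin binding protein and no motor. Of the 42, 33 were listed in all 6 comparisons and 29 had enough signal in all 6 to be counted.

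The study asked how cells that lose cyclin D3 protein differ from cells in which CDK4/6 kinase activity is blocked. RNA was sequenced in 34 samples of RS4;11, which carries an *MLL-AF4* fusion, NALM-6, which carries *ETV6-PDGFRB*, and BV-173, which carries *BCR-ABL*. In the first experiment, cells received a lentiviral vector with TagRFP and either an shRNA against *CCND3* or a scrambled shRNA, and red cells were sorted on day 4. Only 1 *CCND3* shRNA was carried by the sequenced cells. In the second, cells were kept for 3 days in 1 µM palbociclib, a CDK4/6 inhibitor, or in the solvent DMSO. Each of the 12 groups had 3 samples, except NALM-6 with *CCND3* shRNA and BV-173 with DMSO, which had 2. No animals or primary cells were used, and every group is a cultured line.

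Kinesins are proteins that step along or take apart microtubules at the cost of ATP. One set builds and positions the mitotic spindle, moves chromosomes and brings about cytokinesis, and many of its genes are transcribed mainly late in the cell cycle. Another set carries vesicles, mitochondria, lysosomes and protein complexes through the cytoplasm and is used in cycling and resting cells alike.

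The deposited tables give 1 expression level per gene for each group, made by the authors from the group's samples in a way not given in the sources used here. No replicate values stand behind a level here, so that the spread between replicates is not seen, depth per sample is unknown, and each ratio below is a description without a test. A gene was counted where the mean of its 2 group levels was at least 10, and was called lower or higher where the levels differed at least 1.5-fold. The 6 comparisons were scaled separately, and levels from different comparisons are only set side by side. Where 3 values or pairs are given without names, they belong to RS4;11, NALM-6 and BV-173 in that order, with the control level before the treated level. In bulk RNA, fewer cells in mitosis and less RNA in each cell cannot be told apart.

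*CCND3* itself stood at 20.7%, 24.2% and 31.1% of the scrambled level after knockdown, and at 81.8%, 78.0% and 76.0% of the DMSO level after palbociclib. All 7 B-lineage markers were listed in every comparison, with summed levels from 37278 to 77618, whereas T, myeloid and erythroid markers summed to at most 168. The median log2 ratio of all counted genes lay between -0.02 and 0.00 in the 6 comparisons.

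After *CCND3* knockdown, the mitotic kinesins were lower in all 3 lines. All 12 counted members were lower in RS4;11, where 11.3% of all counted genes were lower, and all 12 were lower in NALM-6, against 10.4% of all genes. In BV-173, 10 of 12 were lower, against 5.39%. Their median log2 ratios were -1.64, -1.40 and -0.77. By at least 2-fold, 12 members were lower in RS4;11 (4.70% of all genes), 11 in NALM-6 (3.91%) and none in BV-173 (0.588%). The BV-173 response was thus the shallowest of the 3. *KIF2A*, which also acts at spindle poles, was placed with the other motors and was not called lower after knockdown.

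After palbociclib, all 12 were lower in each line, by 2-fold as well as by 1.5-fold. Of all counted genes, 16.5% were lower by 1.5-fold and 8.00% by 2-fold in RS4;11, 17.6% and 8.09% in NALM-6, and 14.3% and 6.09% in BV-173. The median log2 ratios of the 12 were -5.82, -3.19 and -1.91. The other 2 mitotic genes, *KIF2B* and *KIF4B*, never passed the minimum. *KIF4B* is a near-identical copy of *KIF4A*, so that a few reads may be shared between them, but its listed level did not exceed 1.05 in any group.

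**Figure D1:**
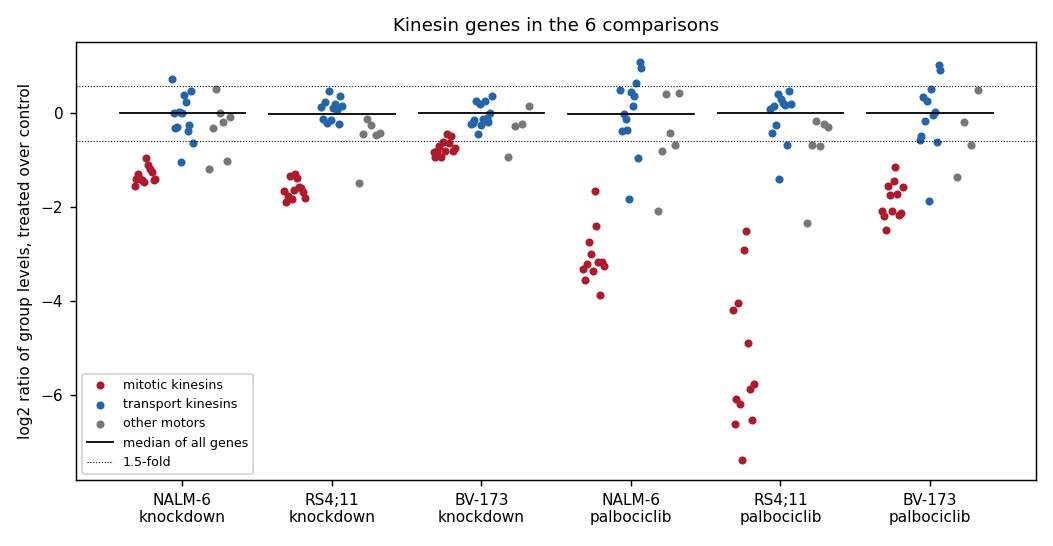
Log2 ratio of the treated over the control group level (vertical axis) for each counted kinesin gene in the 6 comparisons (horizontal axis), with the median of all genes as a bar and 1.5-fold as dotted lines. Mitotic kinesins lie below the lower dotted line except for 2 genes in BV-173 knockdown, and most transport kinesins lie between the dotted lines, with KIF21B, KIF5B, KIFC2 and KIFC3 among those outside.

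The counted mitotic kinesins are taken below by their work in the spindle. *KIF11* encodes Eg5, the tetrameric motor that pushes spindle poles apart. With scrambled against *CCND3* shRNA its level was 3245 against 1028 in RS4;11, 4846 against 1644 in NALM-6 and 3138 against 1762 in BV-173. With DMSO against palbociclib it was 4163 against 226, 4511 against 456 and 3242 against 761. Every treated group lay below its control, with log2 ratios of -1.66, -1.56 and -0.83 for knockdown and -4.20, -3.31 and -2.09 for palbociclib in that order of lines. *KIF15*, which can keep a bipolar spindle when Eg5 is blocked, had log2 ratios of -1.76, -1.30 and -0.81 after knockdown. Palbociclib took its level in RS4;11 from 1285 to 18.9, and its log2 ratios were -6.09, -3.20 and -2.49. In BV-173 *KIF15* had the lowest palbociclib ratio of all kinesins. *KIFC1*, a minus-end motor that gathers the poles, gave scrambled against *CCND3* shRNA levels of 1838 against 529.9 in RS4;11, 3273 against 1236 in NALM-6 and 1440.2 against 863 in BV-173. Its DMSO against palbociclib levels were 2161 against 39.6, 4136 against 435 and 1494 against 502. These pole-organising motors were all lower in both treatments and in each line, and the RS4;11 palbociclib group held the lowest level of each.

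Among motors that govern kinetochore microtubules and chromosome alignment, *KIF2C* encodes MCAK, a microtubule depolymerase at centromeres. Knockdown moved its level by log2 ratios of -1.58, -1.24 and -0.49, from scrambled to *CCND3* shRNA levels of 1802 against 601 in RS4;11, 2884 against 1218 in NALM-6 and 2458 against 1753 in BV-173. BV-173 therefore fell short of the 1.5-fold call. Palbociclib levels, given as DMSO against drug, were 2995 against 51.5, 5119 against 351 and 2656 against 589, which are log2 ratios of -5.86, -3.87 and -2.17. *KIF2C* had the lowest kinesin ratio in NALM-6 under palbociclib, at place 17 among 11618 genes counted from the lowest. *KIF18A*, which damps chromosome oscillation at the metaphase plate, had log2 ratios of -1.34, -1.40 and -0.69 after knockdown and -4.03, -2.75 and -1.55 after palbociclib. It was the only mitotic kinesin whose knockdown ratio was lower in NALM-6 than in RS4;11. *KIF18B*, a partner of MCAK on astral microtubules, had scrambled against *CCND3* shRNA levels of 1402 against 398 in RS4;11, 1856 against 697 in NALM-6 and 1321 against 693 in BV-173. Under palbociclib its levels were 1697 against 23.2, 2649 against 331 and 1101 against 331. Both kinesin-8 genes were lower in all 6 comparisons.

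The chromokinesins *KIF4A* and *KIF22* bind chromosome arms. *KIF4A*, which also sets the length of the spindle midzone, had levels of 1096 against 344 in RS4;11, 1852 against 691 in NALM-6 and 1177 against 679 in BV-173 with scrambled against *CCND3* shRNA. With DMSO against palbociclib they were 1420.2 against 15.3, 2052 against 227 and 1385 against 316. *KIF22*, which pushes arms away from the poles, had levels of 2433 against 929 in RS4;11, 2986 against 1384 in NALM-6 and 2570.3 against 1898 in BV-173 with scrambled against *CCND3* shRNA. It changed less than *KIF4A* in every comparison, and in BV-173 knockdown its log2 ratio of -0.44 was the mildest of the 12. Its palbociclib log2 ratios were -2.50, -2.40 and -1.14, and the RS4;11 and BV-173 values were again the mildest of the 12 in their comparisons.

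The remaining 4 motors act at the midzone and in cytokinesis. *KIF20A*, which brings the chromosomal passenger complex to the midzone, had levels of 1091 against 353 in RS4;11, 1609 against 586 in NALM-6 and 1092 against 713 in BV-173 with scrambled against *CCND3* shRNA. With DMSO against palbociclib they were 2078 against 12.4, 2604 against 253 and 1265 against 299. In RS4;11 this was 168-fold lower, the lowest ratio among 12043 genes. *KIF23*, the motor subunit of centralspindlin, had levels of 1579.7 against 536 in RS4;11, 1946 against 852 in NALM-6 and 1213 against 783 in BV-173 with scrambled against *CCND3* shRNA. Under palbociclib, set against DMSO, these were 2198 against 73.6, 2467 against 274 and 1271 against 388. *KIF14*, which recruits citron kinase to the cleavage furrow, had levels of 772 against 207 in RS4;11, 1447 against 552 in NALM-6 and 1123 against 593 in BV-173 with scrambled against *CCND3* shRNA. Every group with knockdown lay below its control. Its DMSO against palbociclib levels were 1334 against 13.5, 1496 against 128 and 1239 against 273, and it stood at place 7 of 12043 in RS4;11. *KIF20B*, which works in the closing stages of cytokinesis, had log2 ratios of -1.28, -0.96 and -0.81 after knockdown and -2.90, -1.67 and -1.44 after palbociclib. It was the mildest of the 12 in NALM-6 under both treatments and in RS4;11 after knockdown.

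**Figure D2:**
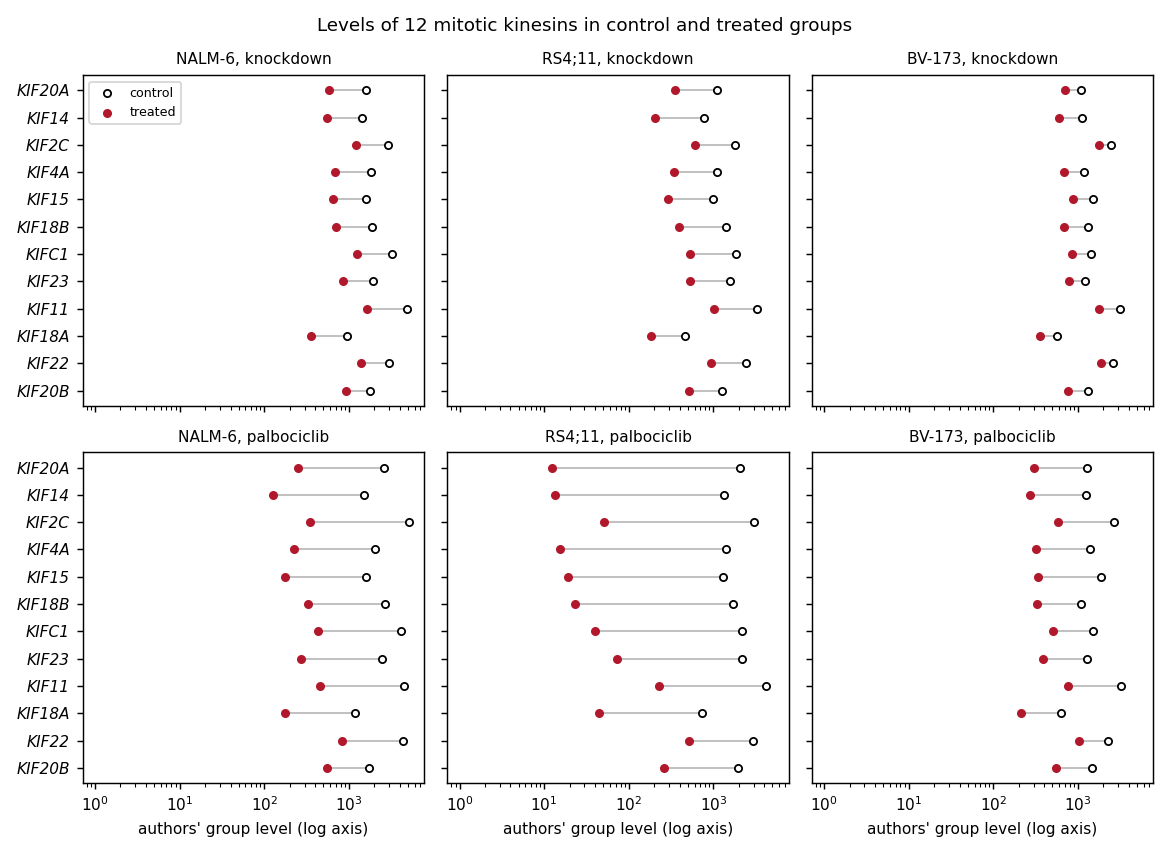
Group levels of the 12 counted mitotic kinesins (horizontal log axis, authors' level, 1 value per group) with control groups as open and treated groups as filled points, in 6 panels by line and treatment. The gap is widest for RS4;11 with palbociclib, where KIF20A went from 2078 to 12.4, and narrowest for BV-173 with knockdown.

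In RS4;11, palbociclib left 5 mitotic kinesins at levels between 12.4 and 23.2, namely *KIF20A*, *KIF14*, *KIF4A*, *KIF15* and *KIF18B*. *KIF4A* stood at place 8 and *KIF18B* at place 22 among the 12043 ratios. The drop was uneven within the class. *KIF22* and *KIF20B* kept 17.7% and 13.4% of the DMSO level, while *KIF20A* kept 0.595%. In BV-173 under the same drug, *KIF20A* kept 23.7% of its DMSO level.

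The palbociclib ratio was below the knockdown ratio for 12 of 12 mitotic kinesins in all 3 lines. These are separate experiments with separate controls, days and cell handling, and the difference was not tested. The lowest ratio over lines was in RS4;11 for all 12 under palbociclib and for 11 after knockdown, and the highest was in BV-173 for all 12 under both. No share over all counted genes was computed for these counts. Of all counted genes, 8.00%, 8.09% and 6.09% were lower by 2-fold under palbociclib, and 4.70%, 3.91% and 0.588% after knockdown. Between treatments, mean log2 ratios over the lines differed most for *KIF20A* (-1.23 after knockdown and -4.28 after palbociclib), *KIF2C* (-1.11 and -3.97) and *KIF14* (-1.40 and -4.12). Over lines, the widest range of palbociclib log2 ratios was 5.32 for *KIF20A*, followed by 4.46 for *KIF18B* and 4.44 for *KIF14*. After knockdown the widest ranges were 1.09 for *KIF2C*, 1.05 for *KIFC1* and 1.01 for *KIF20A*. Across the 12 genes, the order of palbociclib ratios had a Spearman rho of 0.64 between RS4;11 and NALM-6, 0.72 between RS4;11 and BV-173 and 0.76 between NALM-6 and BV-173. For knockdown these were 0.50, 0.57 and 0.31. Each rho describes 12 genes that share the same libraries.

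**Figure D3:**
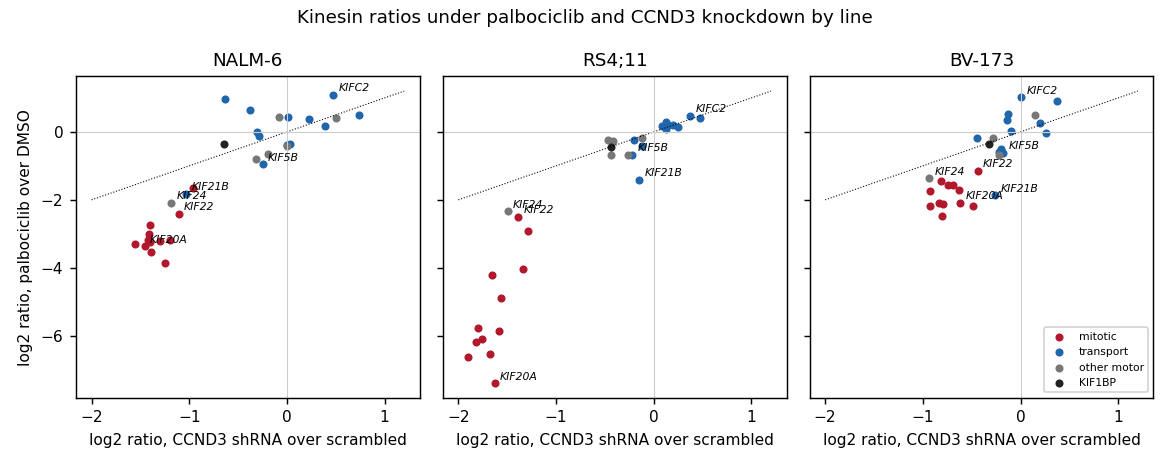
Log2 ratio under palbociclib (vertical axis) against log2 ratio under CCND3 knockdown (horizontal axis) for each kinesin gene counted in both comparisons of a line, with equal values on the dotted diagonal. Mitotic kinesins lie below the diagonal in all 3 lines, lowest for KIF20A in RS4;11 at -7.39, and KIFC2 lies above it.

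Because the mitotic kinesins moved together, their promoters were read from RefSeq windows of GRCh38.p14 running from 250 bases before to 50 after each start. Windows were found for 35 of the 42 genes. Both strands were searched for the CHR (cell cycle genes homology region) words TTTGAA and TTTAAA, for CCAAT and for the E2F word GCGGGAA. The CHR is known as a binding element of the DREAM and MuvB complexes and CCAAT as that of NF-Y, and a word match here is a description of letters, not of binding. Shown are 6 mitotic kinesins whose words lie before the start, then *KIF22*, which held no CHR word, and the transport gene *KIF5B* for contrast. Each line runs 5′ to 3′ on the gene's strand over the 120 bases before the start, with the words in capitals, where TTCAAA and ATTGG are TTTGAA and CCAAT read from the opposite strand.
KIF20A, chr5:138178992-138179111, plus strand: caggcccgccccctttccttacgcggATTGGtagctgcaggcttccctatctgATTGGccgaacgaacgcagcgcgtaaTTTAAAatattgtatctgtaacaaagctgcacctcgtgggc
KIF23, chr15:69414229-69414348, plus strand: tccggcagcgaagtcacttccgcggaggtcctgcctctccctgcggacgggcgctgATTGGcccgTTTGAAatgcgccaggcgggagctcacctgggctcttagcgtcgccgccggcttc
KIF4A, chrX:70289984-70290103, plus strand: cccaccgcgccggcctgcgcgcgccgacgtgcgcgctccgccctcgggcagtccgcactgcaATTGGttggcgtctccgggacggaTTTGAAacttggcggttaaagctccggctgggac
KIF11, chr10:92593010-92593129, plus strand: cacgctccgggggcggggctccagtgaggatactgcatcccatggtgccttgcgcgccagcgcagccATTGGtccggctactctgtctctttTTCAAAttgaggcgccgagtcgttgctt
KIF18A, chr11:28108157-28108276, minus strand: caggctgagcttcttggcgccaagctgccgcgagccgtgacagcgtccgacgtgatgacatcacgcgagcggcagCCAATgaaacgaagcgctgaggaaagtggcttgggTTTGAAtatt
KIF15, chr3:44761674-44761793, plus strand: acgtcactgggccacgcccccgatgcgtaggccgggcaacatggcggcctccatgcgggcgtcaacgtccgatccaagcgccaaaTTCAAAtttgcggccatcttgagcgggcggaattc
KIF22, chr16:29790631-29790750, plus strand: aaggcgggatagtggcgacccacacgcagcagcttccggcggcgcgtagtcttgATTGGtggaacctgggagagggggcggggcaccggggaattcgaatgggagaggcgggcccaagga
KIF5B, chr10:32056426-32056545, minus strand: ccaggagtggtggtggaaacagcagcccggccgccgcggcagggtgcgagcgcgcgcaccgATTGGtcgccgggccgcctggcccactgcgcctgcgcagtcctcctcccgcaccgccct

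A CHR word was present in 11 of 13 windows of the 12 counted mitotic kinesins (84.6%), against 24.0% of 35116 windows of all genes and 17.5% of windows of genes that passed the minimum level. CCAAT was present in 10 of the 13 (76.9%, against 34.6% of all windows), and both words in 9 (69.2%, against 9.27%). On the gene's own strand alone CCAAT was in 23.1% of the 13, against 19.6% of all windows, and a CHR word was in 61.5%, against 18.7%. In the 6 genes shown for it, the CHR word began at base -41 in *KIF20A*, -55 in *KIF23*, -34 in *KIF4A*, -28 in *KIF11*, -10 in *KIF18A* and -35 in *KIF15*, counted back from the start, and CCAAT stood upstream of it in all of these but *KIF15*, which held none. In *KIF2C* it began at -3. It began after the start in *KIF14* (base 2), *KIF18B* (3), *KIFC1* (5) and *KIF20B* (25 and 31). Farther CHR words began at -198 in *KIF14* and -211 in *KIF23*. Within 60 bases before to 50 after the start, limits chosen after the positions were seen, the same 11 of 13 windows held a CHR word, against 8.27% of all windows. *KIF22* was the gene without one. Of 10 windows of the transport kinesins counted in all 6 comparisons, 2 held a CHR word (20%, against 17.5% for counted genes), namely *KIF16B* and *KIF5B*, the latter at base -140, outside the stretch printed, and none did within the narrower limits. With the genes not counted everywhere, it was 2 of 17. The E2F word was in none of the 13 mitotic windows and in 6.55% of all windows. At that share, none in 13 does not set the mitotic windows apart, and other E2F words were not searched.

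Most transport kinesins passed neither call. After knockdown, none of 12 counted members passed either call in RS4;11, where 11.3% of all genes were lower and 10.4% higher. In NALM-6, 2 of 13 were lower and 1 was higher, against 10.4% and 8.55% of all genes, and none of 13 passed in BV-173, against 5.39% and 4.05%. After palbociclib, 2 of 12 were lower and none higher in RS4;11, where 16.5% of all genes were lower and 16.5% higher. In NALM-6, 2 of 13 were lower and 3 higher, against 17.6% and 18.8% of all genes, and in BV-173, 2 of 12 were lower and 2 higher, against 14.3% and 14.6%. The members lower after palbociclib were thus about as frequent as among all genes. Median log2 ratios were 0.12, 0.00 and -0.12 after knockdown and 0.17, 0.16 and 0.00 after palbociclib.

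*KIF5B* encodes the ubiquitous heavy chain of conventional kinesin, or kinesin-1. With scrambled against *CCND3* shRNA its level was 4658 against 3989 in RS4;11, 5472 against 4604 in NALM-6 and 4101 against 3629 in BV-173. With DMSO against palbociclib it was 4637 against 2899, 6599 against 3399 and 3896 against 2535. The palbociclib level was lower by at least 1.5-fold in each line, with log2 ratios of -0.68, -0.96 and -0.62, and knockdown ratios of -0.22, -0.25 and -0.18 stayed short of the call. The BV-173 palbociclib value lay just inside the 1.5-fold limit. Its neuronal relative *KIF5A* was counted only in NALM-6, at 22.8 against 17.5 for knockdown and 13.2 against 20.6 for palbociclib, the latter a higher call at a low level, and *KIF5C* was counted nowhere.

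*KIF21B*, a motor of the kinesin-4 family that also restrains microtubule growth, differed most among the transport kinesins. Its scrambled against *CCND3* shRNA levels were 2288 against 2061 in RS4;11, 3812 against 1861 in NALM-6 and 2781 against 2324 in BV-173. Its DMSO against palbociclib levels were 2368 against 891, 2261 against 639.6 and 4701 against 1293. Palbociclib groups were therefore lower in all lines (log2 ratios -1.41, -1.82 and -1.86), and knockdown groups passed the call in NALM-6 alone (log2 ratios -0.15, -1.03 and -0.26). In contrast to the mitotic class, the lowest palbociclib ratio of *KIF21B* was in BV-173 and the highest in RS4;11.

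The minus-end motors *KIFC2* and *KIFC3* stood above their controls under palbociclib. *KIFC2* went from DMSO to palbociclib levels of 1352 against 1882, 493 against 1056 and 2081 against 4216. Its log2 ratios were 0.48, 1.10 and 1.02 after palbociclib and 0.37, 0.47 and 0.00 after knockdown, so that the call was passed in NALM-6 and BV-173 with palbociclib. *KIFC3*, linked to cell junctions and Golgi positioning, had DMSO against palbociclib levels of 686 against 788, 33.3 against 65.3 and 75.2 against 142. Its RS4;11 control levels were above those of the other lines, in tables normalised separately. After knockdown it was lower in NALM-6 (68.1 against 44, log2 ratio -0.63) and passed no call in the other lines.

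The heterotrimeric kinesin-2 motors carry cargo into cilia and move membranes. *KIF3B* had levels of 522 against 599 in RS4;11, 553 against 722 in NALM-6 and 295 against 353 in BV-173 with scrambled against *CCND3* shRNA. Under DMSO against palbociclib these were 557 against 647, 452 against 505 and 232 against 227. The kinesin-2 genes *KIF3A* and *KIF3C* also passed no call, with log2 ratios from -0.12 to 0.53 for *KIF3A* and from -0.10 to 0.37 for *KIF3C*. In the kinesin-3 family, which moves vesicles and endosomes, *KIF1B*, *KIF1C*, *KIF13B* and *KIF16B* passed no call in any comparison. *KIF13A*, a carrier of recycling endosomes, was higher in NALM-6 after knockdown (484 against 808, log2 ratio 0.74). In BV-173 with palbociclib its log2 ratio of -0.58 was just short of 1.5-fold. *KIF17* passed the minimum once, in BV-173 knockdown, and *KIF1A* and *KIF21A* never.

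**Figure D4:**
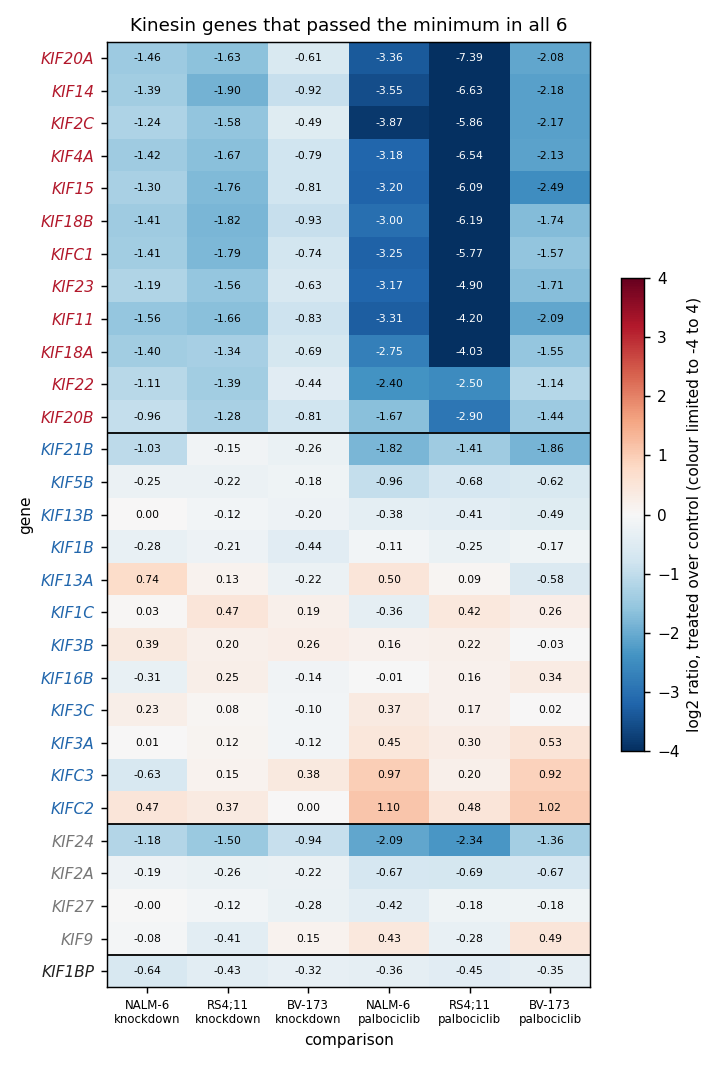
Log2 ratio of treated over control group level for the 29 kinesin rows counted in all 6 comparisons (rows, grouped as mitotic, transport, other motor and KIF1BP) by comparison (columns), written in each cell and coloured on a scale that ends at -4 and 4. The mitotic block is negative throughout, and below it KIF24 is lower in all 6 and KIF21B in 4.

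Of the 10 other motors, only *KIF24* was called lower in all 6 comparisons. After palbociclib, 3 of 6 counted members were lower in RS4;11, 3 of 6 in NALM-6 and 2 of 4 in BV-173. Of all genes, 16.5%, 17.6% and 14.3% were lower. After knockdown, 1 of 6, 2 of 7 and 1 of 4 were lower, against 11.3%, 10.4% and 5.39% of all genes. *KIF24*, a depolymerase at the mother centriole that holds back cilia, had levels of 440.2 against 156 in RS4;11, 575 against 253 in NALM-6 and 403 against 211 in BV-173 with scrambled against *CCND3* shRNA. With DMSO against palbociclib they were 517 against 102, 427 against 101 and 452 against 176. All 6 passed the call, with log2 ratios of -1.50, -1.18 and -0.94 for knockdown and -2.34, -2.09 and -1.36 for palbociclib, and its promoter window held CCAAT at 3 places and no CHR word. In BV-173 knockdown it had the lowest ratio of all kinesins. *KIF2A*, a depolymerase of spindle poles and of neuronal processes, had levels of 2402 against 2005 in RS4;11, 2635 against 2312 in NALM-6 and 2554 against 2188 in BV-173 with scrambled against *CCND3* shRNA. Under palbociclib, set against DMSO, these were 2841 against 1761, 3005 against 1895 and 3499 against 2198. Its palbociclib log2 ratios of -0.69, -0.67 and -0.67 lay close together and passed the lower call in each line. After knockdown they were -0.26, -0.19 and -0.22, short of the call.

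*KIF26A*, which lacks ATPase activity, was counted in NALM-6 and RS4;11. It was lower after palbociclib, at 579 against 360.2 in RS4;11 and 348 against 199 in NALM-6, and not called after knockdown, and it was listed at under 1 or not at all in BV-173. *KIF7*, a regulator of Hedgehog signalling at the cilium tip, was low in every line. It passed the minimum in 3 comparisons and was lower in 1 of them, NALM-6 knockdown (16.5 against 8.13). *KIF27*, its close relative, and *KIF9*, an axonemal motor, were counted in all 6 and called in none. *KIF26B* was counted only in NALM-6, without a call, and *KIF6*, *KIF12* and *KIF25* nowhere. *KIF1BP*, whose protein binds and holds several kinesins off microtubules, was lower in NALM-6 knockdown (653 against 419, log2 ratio -0.64), and its ratios in the other comparisons ran from -0.45 to -0.32. In all, 34 of the 42 genes were counted at least once and 8 never, so that the counts above do not speak for the latter.

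To rank and sum the kinesins, levels were divided by the listed gene length, which was not done for the marker sums and levels given above. Per kilobase, *KIF22* had the highest level of all kinesins in each of the 6 control groups, for example 1382 in NALM-6 with scrambled shRNA and 1046 in BV-173 with DMSO. *KIF5B* led in RS4;11 and NALM-6 with *CCND3* shRNA (676 and 779.6 per kilobase) and in NALM-6 with palbociclib (576). *KIFC2* led in RS4;11 and BV-173 with palbociclib (572 and 1282), and *KIF22* still led in BV-173 with *CCND3* shRNA (878).

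The mitotic members made up 57.9% of the summed kinesin level per kilobase in RS4;11 with scrambled shRNA and 31.3% with *CCND3* shRNA. In NALM-6 this share was 69.8% and 51.3%, and in BV-173 it was 62.4% and 53.6%. With DMSO and palbociclib it was 65.0% and 11.3% in RS4;11, 75.5% and 34.2% in NALM-6, and 60.9% and 33.4% in BV-173. The summed transport level per kilobase moved less. In RS4;11 it was 2764 with DMSO and 2649.9 with palbociclib, while the summed mitotic level was 6913 and 411.

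**Figure D5:**
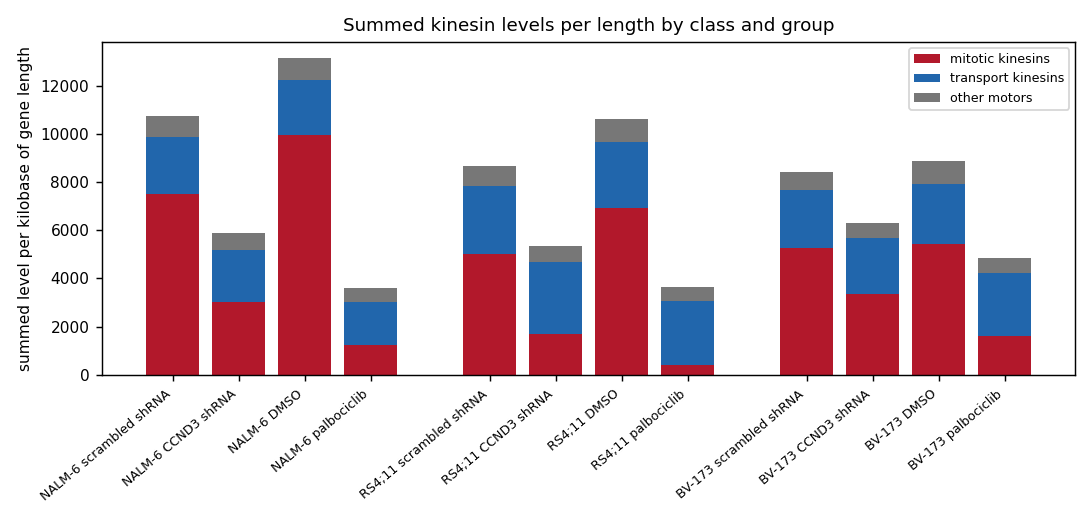
Summed level per kilobase of gene length (vertical axis) of mitotic, transport and other kinesin motors, stacked, in each of the 12 groups (horizontal axis), with 1 value per group. The mitotic part shrinks in every treated group, from 6913 to 411 in RS4;11 with palbociclib, and the transport part stays between 1808 and 3023.

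Control groups of the same line also differed. The DMSO level divided by the scrambled level ran over the 12 mitotic kinesins from 1.18 to 1.90 in RS4;11, from 0.931 to 1.78 in NALM-6 and from 0.833 to 1.22 in BV-173, and was above 1 for 12, 9 and 10 of them. For the transport kinesins its median was 1.05, 0.897 and 0.987. The same ratio was not computed over all genes, so a general offset between the control groups is not separated from a trait of the mitotic kinesins. These ratios join separately normalised tables and cells that did or did not go through transduction and sorting, and the part of either in them was not tested.

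Genes whose proteins work with the motors were read in the same way. Of 18 partners of the mitotic kinesins, 9 were lower in BV-173 after knockdown, where 5.39% of all genes were lower, and all 18 in each of the other 5 comparisons, where 10.4% to 17.6% of all genes were lower. Their median log2 ratios were -1.59, -1.34 and -0.58 after knockdown and -4.46, -3.04 and -1.72 after palbociclib. *RACGAP1*, which joins *KIF23* in centralspindlin, had DMSO against palbociclib levels of 2303 against 258, 4468 against 557 and 2074 against 724. *PRC1*, the midzone bundler that binds *KIF4A*, had 5892 against 313, 4655 against 353 and 1941 against 562. *CENPE*, itself a kinesin of the kinetochore whose symbol does not match the pattern, had levels of 1676 against 34, 1581 against 214 and 1993 against 393. Each of the 3 was lower in every line.

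Of 15 partners of the transport kinesins other than *KIF1BP*, 13 or 14 were counted in each comparison, and 0 or 1 of them were lower and between 0 and 4 higher. Of all genes, 5.39% to 17.6% were lower and 4.05% to 18.8% higher in these comparisons. The kinesin-1 light chain gene *KLC1* had palbociclib log2 ratios of -0.21, 0.21 and -0.16, and *KIFAP3*, which links kinesin-2 to its cargo, had 0.00, 0.02 and -0.21. *MAPK8IP3*, an adaptor of kinesin-1, was higher in RS4;11 and NALM-6 after knockdown and in all 3 lines after palbociclib, with log2 ratios of 0.67, 1.01 and -0.01 and 0.91, 1.07 and 0.85. It was named after its values were seen.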

How the data were processed

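RNA-seq of 34 samples in 12 groups was used. SOAPnuke filtering, Bowtie2 mapping to hg38, RSEM gene levels and DESeq2 comparisons were run by the authors' sequencing provider. Tool versions and the annotation are not given in the sources used here. The deposited tables hold, for each group, 1 expression signal per gene, together with gene length and the authors' own log2 fold changes and p-values, which were not used. Log2 ratios of the 2 group signals of a table, counts at 1.5-fold with a mean level of at least 10, medians and levels per kilobase were computed in Python 3.11.15 with pandas 2.3.3, numpy 2.4.6 and scipy 1.17.1, and plotted with matplotlib 3.10.9. Other folds, minimum levels, class lists, centring, a pseudocount and promoter windows were tried. The ratio script was checked on simulated data. No test was made, since the tables give 1 level a group and the authors' p-values were set aside. Members, classes, partner lists and alternatives were chosen with earlier results of these data known. All mitotic and transport members that passed the minimum could be named. Full levels were given for a fixed list of 11 members, and for the 3 members with the largest differences between treatments or ranges over lines and those near 1.5-fold. Levels of *KIF24* and of some other members were also given, outside these rules. Symbols were matched by gene ID to RefSeq (42 of 42), and promoter windows came from its GRCh38.p14 table.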

Additional observations from a re-analysis of the deposited data

How the results depend on the processing

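Of 257 values computed again under other settings, 211 stayed close to the value reported and 46 moved. Close meant within 0.1 in log2 for a median and within 1.5-fold for a count. For a promoter share it meant inside the exact 95% interval of the reported share. CHR shares of 61.5% and 69.2% thus counted as close to 84.6%. Centring cannot change the difference of the mitotic and transport medians, so those values stayed by construction. Medians near 0 could change sign, as did the transport median of BV-173 palbociclib, from -0.0025 to 0.058 with no minimum level. No paired analysis was possible because the columns are group levels and carry no replicate numbers, and for the same reason no replicate could be left out. At 2-fold, mitotic kinesins lower in BV-173 knockdown numbered 0, transport kinesins lower numbered 1 in NALM-6 knockdown and in each palbociclib comparison, and transport kinesins higher numbered 0 in NALM-6 knockdown and 1 in NALM-6 and BV-173 palbociclib. With a level ratio of 5 to 4 as the limit, transport kinesins higher numbered 2, 3 and 1 after knockdown in RS4;11, NALM-6 and BV-173 and 2, 6 and 4 after palbociclib, and those lower numbered 1 in BV-173 knockdown and 4 in NALM-6 and BV-173 palbociclib. With *KIF2A* and *KIF24* counted as mitotic and *KIF21A* and *KIF21B* left out, 1 transport kinesin was lower in NALM-6 knockdown and in each palbociclib comparison. Under the same lists, mitotic kinesins lower numbered 13, 13 and 11 after knockdown in RS4;11, NALM-6 and BV-173, and 14 in each palbociclib comparison. The mitotic median was then -5.34 in RS4;11 and -1.72 in BV-173 with palbociclib, the difference from the transport median was -5.51 and -1.75, and the transport median was 0.26 in NALM-6 palbociclib. With no minimum level, the mitotic medians were -5.34 and -1.74, and the differences -5.49 and -1.79, in RS4;11 and BV-173 with palbociclib, and 5 and 1 transport kinesins were higher in NALM-6 and RS4;11 with palbociclib. In NALM-6 palbociclib the transport median was 0.41 and the difference -3.58 with no minimum, and -0.014 and -3.17, with 1 transport kinesin higher, with a minimum of 50. The median over mitotic kinesins of the mean ratio over lines was -1.05 without RS4;11 and -1.54 without BV-173 for knockdown, and -3.82 without NALM-6, -2.55 without RS4;11 and -4.55 without BV-173 for palbociclib. With the median over lines in place of the mean it was -1.37 and -3.19. CCAAT was in 23.1% of mitotic windows on the gene's strand alone, against 19.6% of all windows, and in 46.2% from 60 bases before to 50 after the start, a window chosen after seeing the data, against 13.2%. The cause of these moves was not tested beyond what each setting changes by construction.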

Other observations

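The tubulin genes were lower mainly in RS4;11 and NALM-6. They encode the track of these motors, except for the gamma tubulin gene *TUBG1*, which is included in the counts. After knockdown, 8 of 9 counted members were lower in RS4;11, 5 of 8 in NALM-6 and 0 of 8 in BV-173, against 11.3%, 10.4% and 5.39% of all genes, and none was higher. After palbociclib, 7 of 9, 6 of 8 and 2 of 8 were lower, against 16.5%, 17.6% and 14.3%, and 0, 2 and 1 were higher, against 16.5%, 18.8% and 14.6%. *TUBA1B*, an abundant alpha tubulin, had DMSO against palbociclib levels of 77407 against 9803 in RS4;11, 67734 against 12928 in NALM-6 and 41658 against 19225 in BV-173, and scrambled against *CCND3* shRNA levels of 54136 against 18855, 57564 against 27924 and 54286 against 41378 in that order of lines. *TUBA1A*, its close paralog, had palbociclib log2 ratios of 0.16, 0.60 and 0.68, and reads of such near-identical genes may be split between them.

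Ratios of genes at the lowest levels lay near 0 in the deposited tables. Among genes with a mean level under 1, the largest log2 ratio in either direction was between 0.45 and 1.49 over the 6 comparisons, and among genes at 50 or more it was between 2.37 and 7.39. This did not hold for all weakly expressed genes. With palbociclib in NALM-6, the median size of the log2 ratio was 0.21 under a level of 1, 0.76 from 1 to 10, 0.84 from 10 to 50 and 0.39 at 50 or more. The cause was not tested.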
